A study of Mus musculus with 6 samples.

Results

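The genes described here make up the glutathione and antioxidant defence of the cell: the NRF2 regulator and its sensor, the enzymes that make and recycle glutathione, the peroxidases, thioredoxins, superoxide dismutases and glutathione transferases, and a set of quinone, haem, epoxide and aldehyde enzymes. The members are 47 mouse genes named by symbol. All 47 had a row among the 49671 genes of the count table, and all 47 were among the 14946 genes that passed the filter on low counts. The knockout group (3 libraries) came from cells given 4-hydroxytamoxifen and the control group (3 libraries) from cells given ethanol, each for 24 h, 2 days before differentiation was induced. Both groups are the same immortalised line: stromal cells of inguinal white fat from C57BL/6 mice 3 months old with floxed Tcf7l2 (Tcf7l2 F/F), sorted as CD34, Sca1 and CD29 positive, CD31, CD45 and Ter-119 negative cells, given SV40 large T antigen and then CreERT2, a Cre recombinase that 4-hydroxytamoxifen switches on, each from a retrovirus. The controls, whose genotype label reads wild type, thus also carry the floxed allele, the T antigen and CreERT2, and deletion and drug treatment cannot be told apart. Cells were differentiated until day 8, the first 2 days in 1 µM dexamethasone, 0.5 mM isobutylmethylxanthine and 5 µg/mL insulin, and afterwards in insulin. The labels add an agent at 5 nM whose code, W1929 in control replicate 1, goes up by 1 with each library to W1934 in knockout replicate 3. Whether these codes name different agents or a single agent is not stated in the labels. If the agents differ, their effects cannot be told apart from the groups. Whether the 3 libraries of each group were grown as separate cultures is not stated in the labels. The tests therefore measure variation among libraries that may be partly or wholly technical.

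Glutathione is a tripeptide of glutamate, cysteine and glycine whose thiol reduces peroxides, with glutathione peroxidases as catalysts, and is joined to reactive compounds by glutathione transferases. Thioredoxin and the peroxiredoxins form a parallel thiol system, and superoxide dismutases turn superoxide into hydrogen peroxide, which both systems then remove. Many of these genes are targets of the transcription factor NRF2, encoded by Nfe2l2, which KEAP1 holds down until electrophiles or oxidants modify it, and which binds the antioxidant response element of its target genes. In fat cells, the same enzymes deal with peroxide from mitochondria and peroxisomes and with aldehydes formed when lipids are oxidised.

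The libraries held 26764263 to 31520011 counts in the knockout group and 26621293 to 33484764 in the control group. The first principal component (51% of the variance) separated the groups, while the second (15.9%) set knockout replicate 2 and control replicate 3 apart from the other 4 libraries. Tcf7l2 had 5.65, 6.84 and 5.86 CPM (counts scaled to library size) in knockout libraries and 7.71, 6.12 and 9.11 CPM in control libraries, so the groups overlapped (adjusted p = 0.125 in edgeR; log2 fold change -0.32, SE 0.14). Tcf7l2 was called lower in only 1 of 16 alternative analyses, the one without control replicate 2 (adjusted p = 0.0322 in edgeR). That library had the lowest control value, 6.12 CPM. A count over a whole gene does not measure the loss of the floxed part. Adipocyte markers were abundant: 9 of 10 rose, and their summed level was 10855 to 13066 CPM in knockout and 8195 to 8425 CPM in control libraries. Without Fabp4, the highest of them, the sum was 4908 to 5459 CPM in knockout and 3805 to 3949 CPM in control libraries. Of 11 preadipocyte and fibroblast markers, 0 rose and 2 (Thy1 and Col3a1) fell. The share called, 18.2%, was below the 22.4% of all tested genes, and Thy1 was called narrowly (adjusted p = 0.045 in edgeR). Their sums were 24279 to 25460 CPM in knockout and 28484 to 29701 CPM in control libraries for the 11 markers. Col3a1 carried that gap: without it the sums overlapped, at 4072 to 4736 CPM in knockout and 4139 to 4586 CPM in control libraries. Ly6a, which encodes Sca1, lay above the control libraries in every knockout library but was not called (log2 fold change 0.45; adjusted p = 0.054). The adipocyte sum moves with the results below, and its part in them was not tested. Fewer cells of a type and less RNA per cell cannot be told apart in such bulk samples. Immune markers summed to 4.34 to 4.74 CPM in knockout and 3.95 to 5.03 CPM in control libraries, with Adgre1 and Cd3e at 0 counts in every library and 0 of the 2 tested called. Endothelial markers summed to 26.6 to 28.1 CPM in knockout and 23.1 to 25 CPM in control libraries, nearly all from Kdr (called higher) and Tek, with Cldn5 at 0 counts. Erythroid markers reached at most 0.0746 CPM in knockout and 0.0595 CPM in control libraries, and muscle markers 16.5 to 18.3 CPM in knockout and 13.8 to 16.1 CPM in control libraries, with Des called higher.

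In the knockout cells 18 of the 47 genes rose and 4 fell, and 25 were not called at an adjusted p under 0.05. Over all tested genes, 22.4% were called, 11.9% higher and 10.5% lower. Among the members 46.8% were called, 38.3% higher and 8.51% lower, and their median log2 fold change was 0.12, beside -0.002 over all tested genes. The counts varied with the libraries used. Without knockout replicate 3, 17 members were called higher and 2 lower, and likewise without control replicate 1. Over all tested genes the calls of lower genes also dropped, from 1568 to 925 and 923. Without the 2 libraries set apart on the second component, 21 members were called higher and 6 lower (1915 lower over all tested genes). The changes were small: the largest rise was that of the microsomal transferase gene Mgst2, 1.6-fold, and the largest fall that of the secreted peroxidase gene Gpx3, 1.39-fold. The genes that rose were the superoxide dismutases (3 of 3), the microsomal glutathione transferases (3 of 3), 4 of 12 soluble transferases, 3 of 7 peroxiredoxin and sulfiredoxin genes, 3 of 7 quinone, haem, epoxide and aldehyde enzymes, and 1 of 4 in each of the glutathione synthesis and thioredoxin groups. The groups of libraries did not overlap for 28 of the 47 members, 21 with every knockout library above and 7 with every knockout library below the control libraries, against 37.9% of all tested genes (18.5% above and 19.3% below). Summed over the 47 genes, the level was 5477, 5400 and 5555 CPM in knockout libraries and 4768, 4739 and 4760 CPM in control libraries.

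**Figure D1:**
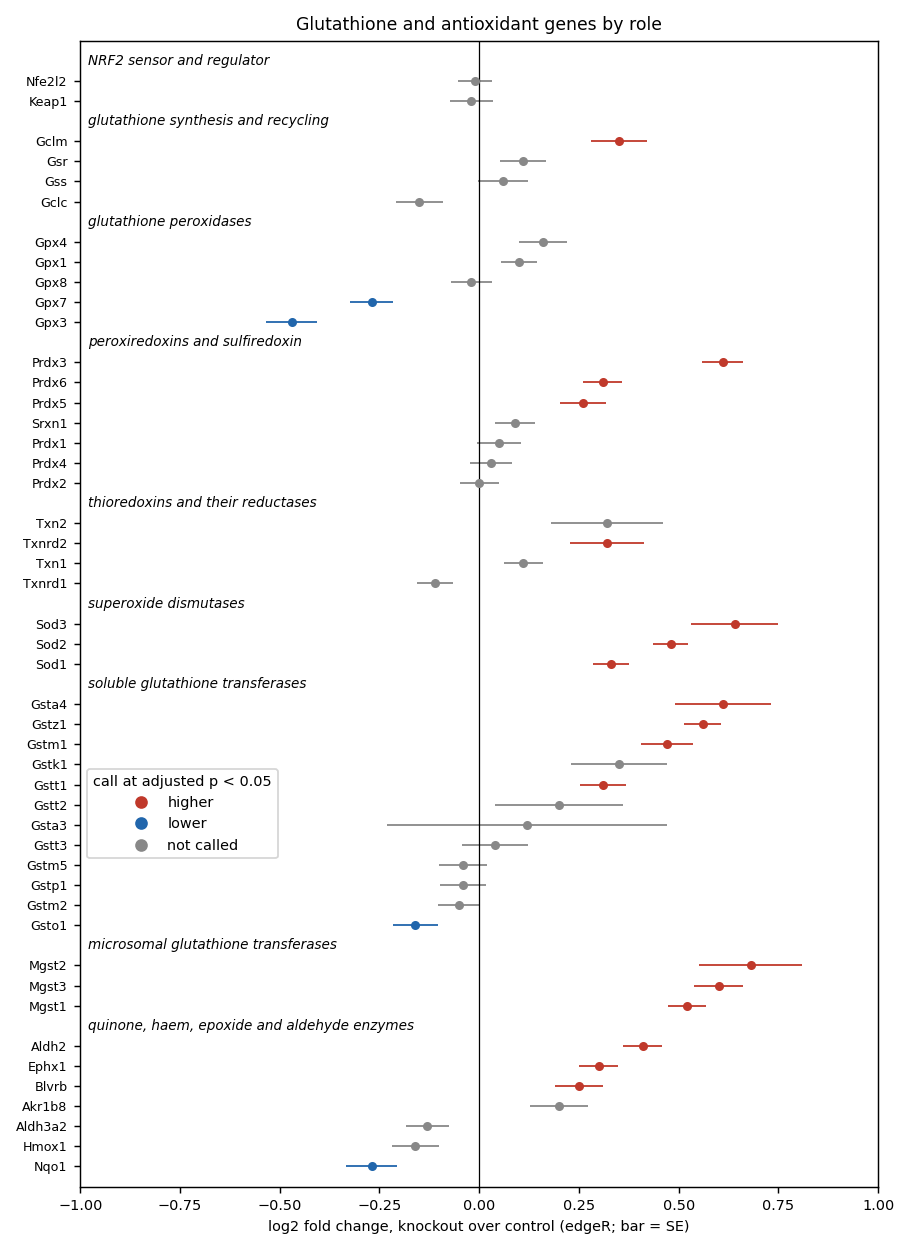
Log2 fold change of each of the 47 genes, knockout over control, grouped by role, with the standard error as a bar and the call as colour. All 3 superoxide dismutase and all 3 microsomal transferase genes lie to the right of 0, Nfe2l2 and Keap1 lie next to 0, and the 4 genes called lower are Gpx3, Gpx7, Nqo1 and Gsto1.

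The letters of the antioxidant response element are shown first, because many of the members are targets of NRF2. Whether these letters relate to the calls was not tested. RefSeq promoter windows on GRCm38.p6, from 250 bases before to 50 bases after the annotated start, were at hand for 39 of the 47 genes, and those of Gclc, Gsr, Prdx6, Sod3, Gsta4, Gstt2, Hmox1 and Aldh2 were not analysed here. The core was in 1 of 2 windows of Mgst1 and 1 of 3 of Txnrd1. The core letters TGACNNNGC, searched on both strands, were found in windows of 9 of these 39 genes (23.1%), beside 14% of all 27025 genes with a window. By call, they were found for 3 of 14 genes called higher, 0 of 4 called lower and 6 of 21 not called. A match describes letters and not a bound site, and a window without a match does not show that a gene lacks sites elsewhere. The 9 stretches are given 5′ to 3′ on the strand on which the core reads as searched, with the core in capitals and 10 bases on each side.
Gclm (called higher), chr3:122245413-122245441, minus strand: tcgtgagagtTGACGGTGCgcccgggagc
Sod1 (called higher), chr16:90220696-90220724, minus strand: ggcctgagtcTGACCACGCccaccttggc
Mgst1 (called higher), chr6:138140461-138140489, minus strand: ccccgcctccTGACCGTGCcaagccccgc
Nfe2l2 (not called), chr2:75704885-75704913, minus strand: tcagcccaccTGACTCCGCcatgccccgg
Prdx1 (not called), chr4:116685456-116685484, minus strand: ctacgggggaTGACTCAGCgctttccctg
Srxn1 (not called), chr2:152105542-152105570, minus strand: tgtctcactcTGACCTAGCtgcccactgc
Txnrd1 (not called), chr10:82859104-82859132, minus strand: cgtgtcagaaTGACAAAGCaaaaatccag
Gstm5 (not called), chr3:107895802-107895830, plus strand: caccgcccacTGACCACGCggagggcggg
Gsta3 (not called), chr1:21240454-21240482, plus strand: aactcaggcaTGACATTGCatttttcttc

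The letters CTTTGAT, a form of the TCF/LEF motif, were in the windows of 0 of the 39 genes, beside 4.29% of all genes with a window, and the direct repeat bound by PPAR and RXR, AGGTCA repeated with 1 free base in between, was in 0 of 39, beside 0.0481% of all. At such low shares, little can be read from 0 matches among 39 genes. Sod1 and Gstm5 have the same core letters, TGACCACGC, and differed in their call.

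Neither of the 2 regulators was called. Nfe2l2 (ENSMUSG00000015839; GRCm38 chromosome 2, 75675513 to 75704641, minus strand), which encodes NRF2, had 158, 160 and 162 CPM in knockout libraries and 160, 159 and 164 CPM in control libraries. Keap1 (ENSMUSG00000003308; chromosome 9, 21229730 to 21239361, minus strand), whose product marks NRF2 for degradation, had 86.6, 91.5 and 86.1 CPM in knockout libraries and 88.5, 84.6 and 94.9 CPM in control libraries. The groups overlapped for both genes. The log2 fold change was -0.01 for Nfe2l2 (SE 0.043; adjusted p = 0.902) and -0.02 for Keap1 (SE 0.054; adjusted p = 0.829). An antisense gene, Gm16754, overlaps 10.9% of the Keap1 exon bases. Transcript levels do not show how much NRF2 protein is present or active.

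One of the 4 genes of glutathione synthesis and recycling rose. Gclm, the modifier subunit of glutamate-cysteine ligase, the rate-limiting enzyme of glutathione synthesis, had 35.9, 36.5 and 34.4 CPM in knockout libraries and 25.9, 27.4 and 30.8 CPM in control libraries. Every knockout library lay above every control library, and the gene was 1.27-fold higher (log2 fold change 0.35, SE 0.07; adjusted p = 0.00253). Gclc, the catalytic subunit of the same enzyme, had 29.3, 31.2 and 30.3 CPM in knockout libraries and 32.8, 32.8 and 34.8 CPM in control libraries, below in every knockout library, but was not called (log2 fold change -0.15, SE 0.059; adjusted p = 0.0964). Gsr, which returns oxidised glutathione to its reduced form, had 48.3, 54 and 53.2 CPM in knockout libraries and 48.8, 48.3 and 47.2 CPM in control libraries, which overlap (adjusted p = 0.205). Gss, glutathione synthetase, averaged 27.8 ± 0.706 CPM in knockout and 26.7 ± 1.29 CPM in control libraries (SD, n = 3 each; adjusted p = 0.537). It shares 6.68% of its exon bases with Acss2 on the opposite strand, a gene called higher (log2 fold change 0.95) that had far more reads, 63055 over the 6 libraries, so the value of Gss is uncertain if the counting ignored strand.

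Of the 5 glutathione peroxidases, 2 fell, 0 rose and 3 were not called. Gpx3, the peroxidase secreted into plasma, had 41.4, 40.1 and 40.2 CPM in knockout libraries and 52.7, 54.6 and 62 CPM in control libraries. Gpx3 was lower in every knockout library, with a log2 fold change of -0.47 (SE 0.064; adjusted p = 1.25e-04), the largest fall among the members. Gpx7, an endoplasmic reticulum peroxidase that works with protein disulphide isomerase, had 54.5, 50.2 and 50.3 CPM in knockout libraries and 59.6, 63.3 and 63.7 CPM in control libraries, a 1.2-fold fall (log2 fold change -0.27, SE 0.055; adjusted p = 0.00311). Its close relative in the same compartment, Gpx8, had 139, 131 and 141 CPM in knockout libraries and 146, 138 and 133 CPM in control libraries, which overlap (adjusted p = 0.811). The intracellular selenium enzymes were not called: Gpx1 averaged 139 ± 2.82 CPM in knockout and 130 ± 4.14 CPM in control libraries (adjusted p = 0.164). Gpx4, which reduces lipid peroxides within membranes, averaged 67.3 ± 3.49 CPM in knockout and 60.2 ± 4.16 CPM in control libraries (adjusted p = 0.0752), and every knockout library was above every control library for both genes. A processed copy of Gpx4, Gpx4-ps2, repeats 73.7% of the Gpx4 transcript at an identity of at least 97%, so the Gpx4 count depends on how reads with several matches were treated.

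Of the 7 peroxiredoxin and sulfiredoxin genes, 3 rose and 0 fell. Prdx3, the mitochondrial peroxiredoxin (ENSMUSG00000024997; GRCm38 chromosome 19, 60864051 to 60874556, minus strand), had 281, 252 and 284 CPM in knockout libraries and 176, 179 and 179 CPM in control libraries. The groups lay well apart, and Prdx3 was 1.53-fold higher (log2 fold change 0.61, SE 0.052; adjusted p = 2.80e-06). Prdx6, a peroxiredoxin with a single catalytic cysteine that also acts as a phospholipase, had 137, 146 and 149 CPM in knockout libraries and 113, 115 and 120 CPM in control libraries. Prdx6 was higher in every knockout library, 1.24-fold (adjusted p = 4.43e-04). Prdx5, found in mitochondria, peroxisomes and cytosol, had 183, 170 and 191 CPM in knockout libraries and 157, 141 and 155 CPM in control libraries, a 1.2-fold rise (adjusted p = 0.00433). Prdx5 shares 19.1% of its exon bases with Trmt112 on the opposite strand, which had 675 counts over the 6 libraries.

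Prdx1, the main cytosolic peroxiredoxin, had 354, 311 and 334 CPM in knockout libraries and 324, 335 and 310 CPM in control libraries, and the groups overlapped (log2 fold change 0.05, SE 0.055; adjusted p = 0.609). Prdx2, also cytosolic, averaged 143 ± 5.23 CPM in knockout and 143 ± 5.89 CPM in control libraries (adjusted p = 0.961). Prdx4, the peroxiredoxin of the endoplasmic reticulum, averaged 245 ± 9.46 CPM in knockout and 240 ± 13.7 CPM in control libraries (adjusted p = 0.716). Srxn1, which repairs overoxidised peroxiredoxins, averaged 87.2 ± 3.1 CPM in knockout and 81.8 ± 2.85 CPM in control libraries (adjusted p = 0.218). Other genes repeat 26% of the Prdx1 transcript nearly exactly, so reads of these stretches may have been shared or dropped in the counting. Matches to other genes, Junb among them, cover 20.5% of the Prdx2 transcript. Prdx2 shares 5.67% of its exon bases with Junb and 5.8% with Rnaseh2a, both on the opposite strand. The value of Prdx2 is thus uncertain if the counting ignored strand.

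In the thioredoxin system 1 of 4 genes rose. Txnrd2, the mitochondrial thioredoxin reductase, was low, at 8.22, 8.47 and 8.66 CPM in knockout libraries and 6.46, 6.9 and 7 CPM in control libraries, and 1.25-fold higher (adjusted p = 0.0243). The call was not made by DESeq2 (adjusted p = 0.0636) or without knockout replicate 3 (0.0907), control replicate 1 (0.111) or control replicate 2 (0.0634). Txn1, cytosolic thioredoxin, had 162, 174 and 174 CPM in knockout libraries and 155, 154 and 164 CPM in control libraries, which overlap (log2 fold change 0.11, SE 0.049; adjusted p = 0.135). Txn2, the mitochondrial form, had 49.5, 65.3 and 49.7 CPM in knockout libraries and 39.2, 42.4 and 50.4 CPM in control libraries. Within each group the highest value was that of knockout replicate 2 or control replicate 3, the 2 libraries set apart on the second component. Txn2 was not called (log2 fold change 0.32, SE 0.14; adjusted p = 0.151), but was called without those 2 libraries (0.28; adjusted p = 0.00111) and by DESeq2 (adjusted p = 0.0168). Txnrd1, the cytosolic reductase and a known NRF2 target, had 115, 120 and 118 CPM in knockout libraries and 126, 130 and 126 CPM in control libraries, below in every knockout library and not called (log2 fold change -0.11, SE 0.045; adjusted p = 0.0974).

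All 3 superoxide dismutases rose. The libraries of the groups did not overlap for any of them, which held for all 22 called members and 37.9% of all tested genes. Sod2, the manganese enzyme of the mitochondrial matrix (ENSMUSG00000006818; GRCm38 chromosome 17, 13006846 to 13040063, plus strand), had 162, 156 and 163 CPM in knockout libraries and 115, 114 and 115 CPM in control libraries. The rise was 1.4-fold (log2 fold change 0.48, SE 0.044; adjusted p = 5.22e-06). Sod1, the copper-zinc enzyme of the cytosol, had 244, 228 and 240 CPM in knockout libraries and 193, 191 and 184 CPM in control libraries. Sod1 rose 1.25-fold (log2 fold change 0.33, SE 0.046; adjusted p = 1.90e-04). Sod3, the secreted enzyme, had 14, 17.9 and 16.4 CPM in knockout libraries and 9.19, 10.6 and 11.4 CPM in control libraries. Sod3 rose 1.55-fold (log2 fold change 0.64, SE 0.11; adjusted p = 6.94e-04).

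**Figure D2:**
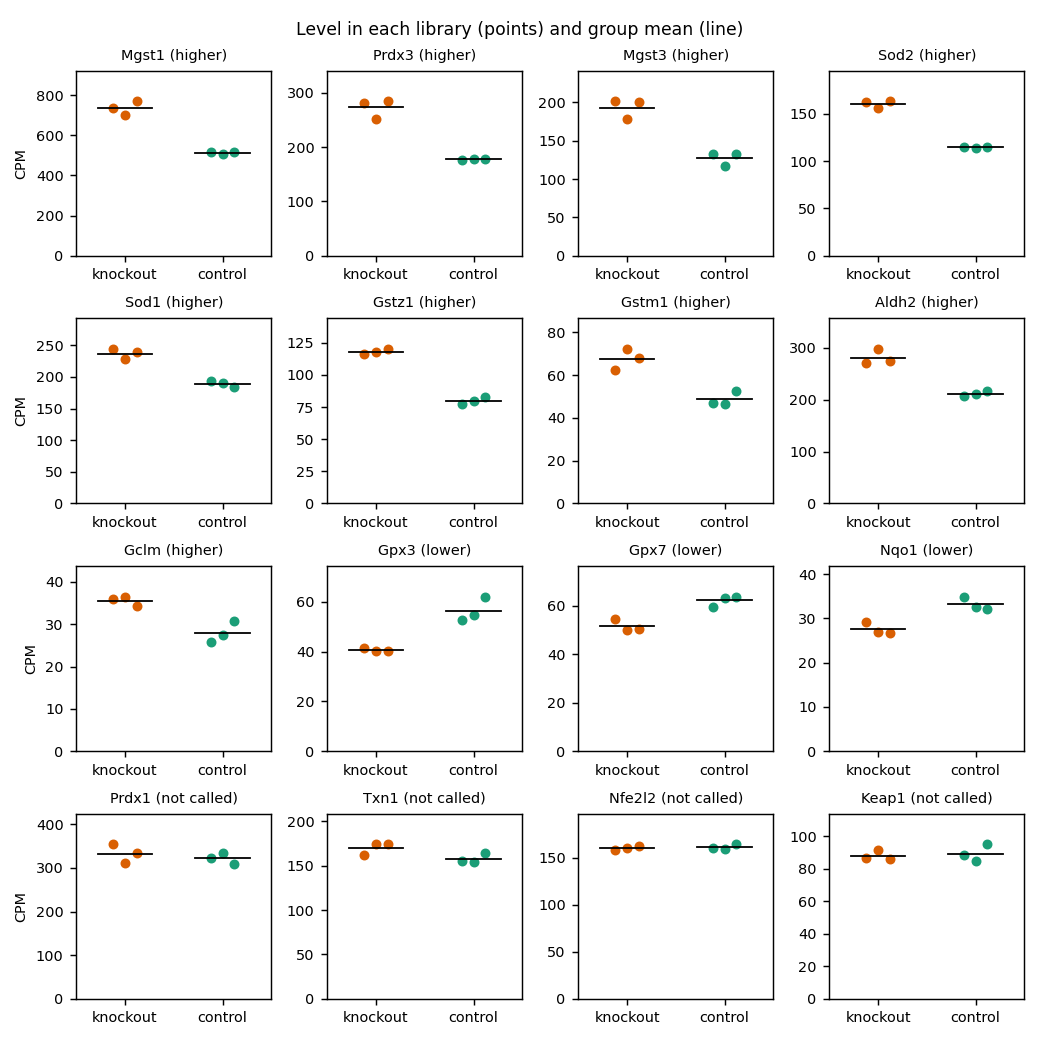
CPM in each library for 16 of the genes, knockout on the left and control on the right of each panel, with a line at the group mean and every axis starting at 0. Points of the 2 groups do not overlap in the panels marked higher or lower, and they overlap for Prdx1, Txn1, Nfe2l2 and Keap1.

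Among the 12 soluble glutathione transferases, 4 rose, 1 fell and 7 were not called. Gsta4, the alpha-class enzyme that conjugates the lipid aldehyde 4-hydroxynonenal, had 6.15, 5.06 and 5.56 CPM in knockout libraries and 3.69, 3.65 and 3.61 CPM in control libraries. It was 1.53-fold higher (log2 fold change 0.61, SE 0.12; adjusted p = 0.00201), with every knockout library above every control library. Gstz1, the zeta-class enzyme of tyrosine breakdown (maleylacetoacetate isomerase), had 116, 118 and 120 CPM in knockout libraries and 77.4, 79.4 and 82.9 CPM in control libraries. The lowest knockout library lay well above the highest control library, and Gstz1 was 1.48-fold higher (log2 fold change 0.56, SE 0.047; adjusted p = 2.56e-06). Gstz1 shares 9.14% of its exon bases with Pomt2 on the opposite strand. Gstm1, a mu-class enzyme, had 62.5, 72.2 and 68 CPM in knockout libraries and 47.2, 46.4 and 52.4 CPM in control libraries, a 1.39-fold rise (adjusted p = 1.43e-04). The pseudogene Gstm2-ps1 repeats 51% of the Gstm1 transcript. Gstt1, of the theta class, averaged 44.1 ± 1.65 CPM in knockout and 35.5 ± 1.09 CPM in control libraries, a 1.24-fold rise (adjusted p = 0.00121).

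Gsto1, the omega-class enzyme, which reduces dehydroascorbate, had 122, 130 and 123 CPM in knockout libraries and 138, 151 and 132 CPM in control libraries. It was called lower by a narrow margin (log2 fold change -0.16, SE 0.056; adjusted p = 0.0484). Gsto1 was not called with DESeq2 size factors (0.0519), in limma-voom (0.0521), by DESeq2 (0.0687) or without knockout replicate 1 or 3 or control replicate 1 or 2 (0.116 to 0.214). Gstk1, the kappa-class enzyme of mitochondria and peroxisomes, had 6.42, 6.05 and 5.15 CPM in knockout libraries and 4.85, 4.71 and 4.29 CPM in control libraries. All knockout libraries were above the control libraries, but the gene narrowly missed the threshold (log2 fold change 0.35, SE 0.12; adjusted p = 0.0515), and it was called in 5 alternatives, among them DESeq2 size factors (0.0496). The other mu-class genes and Gstp1 were not called, with log2 fold changes of -0.05 for Gstm2, -0.04 for Gstm5 and -0.04 for Gstp1 (adjusted p of 0.513 to 0.671). Gstp2 repeats 86.1% of the Gstp1 transcript, and 4933431E20Rik on the opposite strand overlaps 13.9% of the Gstm5 exon bases, which makes both values uncertain. Gstt3 averaged 11.5 ± 0.594 CPM in knockout and 11.1 ± 0.492 CPM in control libraries (adjusted p = 0.77), and it shares 13.6% of its exon bases with Gm20441. Gstt2, at 2.32 ± 0.284 and 2.02 ± 0.241 CPM in knockout and control libraries, and Gsta3, at 0.449 ± 0.144 and 0.411 ± 0.106 CPM in knockout and control libraries, were low and not called (adjusted p of 0.425 and 0.847).

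The 3 microsomal glutathione transferases, membrane enzymes of the MAPEG family, all rose. Mgst1 (ENSMUSG00000008540; GRCm38 chromosome 6, 138140316 to 138156755, plus strand), which protects membranes of the endoplasmic reticulum and outer mitochondrial membrane from lipid peroxides, had 734, 703 and 768 CPM in knockout libraries and 518, 505 and 515 CPM in control libraries. The gap between the groups was several times the spread within either, and the rise was 1.43-fold (log2 fold change 0.52, SE 0.048; adjusted p = 5.34e-06). Mgst3 had 201, 178 and 200 CPM in knockout libraries and 133, 117 and 132 CPM in control libraries. Mgst3 rose 1.51-fold (log2 fold change 0.60, SE 0.062; adjusted p = 1.51e-05). Mgst2, which can make leukotriene C4, was low, with 5.95, 5 and 5.82 CPM in knockout libraries and 3.03, 3.5 and 3.95 CPM in control libraries, and rose 1.6-fold (log2 fold change 0.68, SE 0.13; adjusted p = 0.00199). No library of one group reached into the other for any of these 3 genes, as for every called member.

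Of the 7 quinone, haem, epoxide and aldehyde enzymes, 3 rose and 1 fell. Aldh2, the mitochondrial aldehyde dehydrogenase, had 270, 297 and 274 CPM in knockout libraries and 207, 210 and 217 CPM in control libraries. Aldh2 rose 1.33-fold (log2 fold change 0.41, SE 0.049; adjusted p = 5.04e-05). Ephx1, the microsomal epoxide hydrolase, had 276, 290 and 291 CPM in knockout libraries and 226, 245 and 226 CPM in control libraries, a 1.23-fold rise (adjusted p = 6.09e-04). Blvrb, biliverdin reductase B, averaged 52.9 ± 3.21 CPM in knockout and 44.5 ± 1.78 CPM in control libraries and rose 1.19-fold (adjusted p = 0.00807), a call not made without knockout replicate 3 (0.0617) or control replicate 1 (0.0537).

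Nqo1, the quinone reductase often read as a marker of NRF2 activity, moved the other way, with 29.2, 26.9 and 26.7 CPM in knockout libraries and 34.9, 32.5 and 32.1 CPM in control libraries. It was lower in every knockout library (log2 fold change -0.27, SE 0.064; adjusted p = 0.00855). Nqo1 was not called without knockout replicate 3 (0.0517) or control replicate 1 (0.0584). Hmox1, inducible haem oxygenase, averaged 242 ± 15.5 CPM in knockout and 269 ± 16.8 CPM in control libraries with overlap between the groups (log2 fold change -0.16, SE 0.059; adjusted p = 0.0768). It was called lower without knockout replicate 2 (adjusted p = 0.00804). Akr1b8, an aldo-keto reductase, averaged 73.4 ± 4.88 CPM in knockout and 63.8 ± 6.14 CPM in control libraries (adjusted p = 0.0632). It was called higher without knockout replicate 2 (0.0139) or control replicate 1 (0.0384). Aldh3a2, the fatty aldehyde dehydrogenase, averaged 87.1 ± 5.61 CPM in knockout and 95.3 ± 0.985 CPM in control libraries (adjusted p = 0.0987). It was called lower without knockout replicate 1 (adjusted p = 0.0245).

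Grouped by the place where their products act, a grouping made after the values were seen, the 7 members best known from mitochondria (Prdx3, Prdx5, Sod2, Txn2, Txnrd2, Gstk1 and Aldh2) included 5 called higher and 0 called lower, and their 7 log2 fold changes ran from 0.26 to 0.61. The 5 members that are secreted or act in the lumen of the endoplasmic reticulum (Gpx3, Gpx7, Gpx8, Prdx4 and Sod3) included 1 called higher and 2 called lower, with log2 fold changes from -0.47 to 0.64. Over all tested genes 11.9% were called higher and 10.5% lower, and over the 47 members 38.3% and 8.51%. Prdx5 and Gstk1 also act in other places, and Mgst1, placed above partly at the outer mitochondrial membrane and called higher, was left out. Because the grouping followed the values, no test was made of the difference between the places.

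Scaled by exon length, the transcripts of the members spanned more than 3 orders of magnitude. In knockout cells Mgst1 stood highest, at 365 ± 16.2 RPKM (counts scaled to library size and exon length; SD, n = 3), followed by Prdx3 at 184 ± 11.9 RPKM, Mgst3 at 176 ± 11.7 RPKM and Txn1 at 162 ± 6.52 RPKM. The SD ranges of Prdx3 and Mgst3 overlapped, as did those of Mgst3 and Txn1. In control cells the order was Mgst1 at 255 ± 3.44 RPKM, Hmox1 at 154 ± 9.62 RPKM, Txn1 at 150 ± 5.36 RPKM and Gpx8 at 133 ± 6.13 RPKM, of which Hmox1 and Txn1 did not differ beyond their spread. Prdx3 was in place 2 in knockout and place 5 in control cells, and Mgst3 in place 3 and place 7. At the low end, Gsta3 was at 0.103 ± 0.0331 RPKM in knockout and 0.0946 ± 0.0244 RPKM in control cells. Among the dismutases Sod1 stood at 59.8 ± 2.04 RPKM in knockout and 47.7 ± 1.17 RPKM in control cells, above Sod2 at 16 ± 0.378 RPKM in knockout and 11.5 ± 0.0749 RPKM in control cells. Exon length was the union over all annotated transcripts, which lowers the scaled level of genes with long minor forms.

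**Figure D3:**
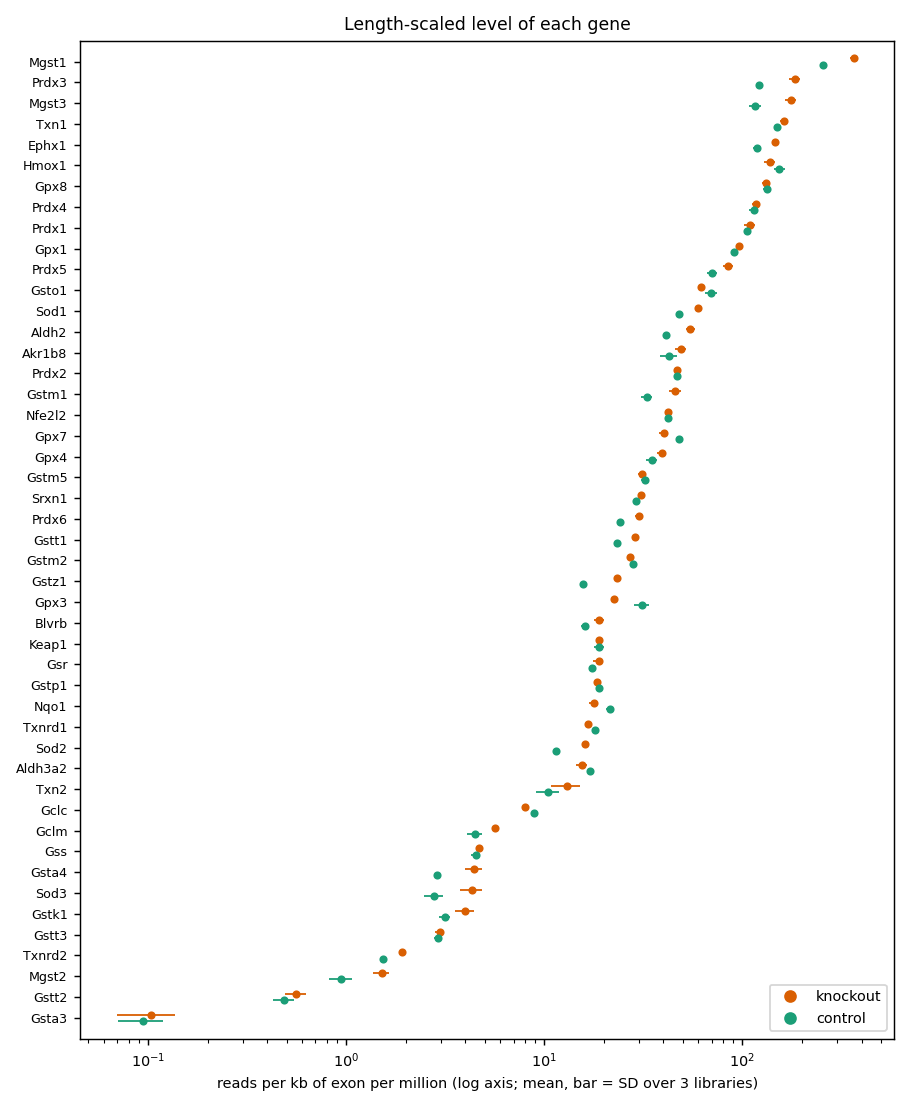
Length-scaled level of the 47 genes in RPKM on a log axis, as mean and SD over 3 libraries, with the gene highest in knockout cells at the top. Mgst1 is at the top in both groups (365 RPKM in knockout, 255 RPKM in control) and Gsta3 at the bottom.

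Further genes of the pathway were read from 8 lists chosen by role, which hold 121 genes that are not members. Of the 108 that were tested, 26 rose (24.1%) and 17 fell (15.7%), beside 11.9% and 10.5% of all tested genes. The other 65 were not called, and the median log2 fold change was 0.01. Among 11 partners and repressors of NRF2, 0 rose, 2 fell and 9 were not called. The share called, 18.2%, was below the 22.4% of all tested genes. Bach1, a repressor that competes with NRF2 for its sites, fell slightly (log2 fold change -0.21; 66.1 ± 2.06 CPM in knockout and 76.5 ± 0.941 CPM in control libraries; adjusted p = 0.00644). Sqstm1, the p62 adaptor that can draw KEAP1 into autophagy, fell 1.12-fold (adjusted p = 0.0194), a call not made without knockout replicate 1 or 3 or control replicate 1 or 2.

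Among 19 further NRF2 targets, 7 rose and 2 fell. The other 10 were not called, and the median log2 fold change was 0.02. Slc7a11, the cystine transporter that supplies cysteine for glutathione, had 49.1, 39.8 and 46.9 CPM in knockout libraries and 72, 72.7 and 70.4 CPM in control libraries. This was a 1.59-fold fall (log2 fold change -0.66, SE 0.069; adjusted p = 1.59e-05). Ftl1, ferritin light chain, fell 1.14-fold (adjusted p = 0.0125), a call not made without control replicate 1. In the other direction, Me1, cytosolic malic enzyme, had 592, 464 and 512 CPM in knockout libraries and 313, 308 and 292 CPM in control libraries, a 1.72-fold rise (adjusted p = 3.26e-05). Osgin1 rose 1.66-fold at a low level (3.73 ± 0.27 CPM in knockout and 2.26 ± 0.24 CPM in control libraries; adjusted p = 0.00192).

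Among 21 genes of cystine uptake and of glutathione transport and turnover, 20 were tested, 3 rose, 6 fell and 11 were not called. Besides Slc7a11, the falls included Ggt5, a gamma-glutamyl transferase of the cell surface, 1.41-fold (adjusted p = 6.97e-06). Slc3a2, the partner chain of Slc7a11, named after its values were seen, fell 1.17-fold (171 ± 4 CPM in knockout and 201 ± 0.994 CPM in control libraries; adjusted p = 0.00167). Oplah, 5-oxoprolinase of the gamma-glutamyl cycle, rose 1.25-fold (adjusted p = 0.0039), and Slc1a5, a glutamine transporter, 1.19-fold (adjusted p = 0.00907), a call of Slc1a5 that was not made without control replicate 1 or 2.

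NADPH is the electron source of both glutathione reductase and thioredoxin reductase. Of 16 genes listed for NADPH supply, not all of which make NADPH themselves, 6 rose, 3 fell and 7 were not called. G6pdx, the entry enzyme of the pentose phosphate pathway, had 267, 266 and 265 CPM in knockout libraries and 175, 160 and 172 CPM in control libraries. G6pdx rose 1.57-fold (log2 fold change 0.66, SE 0.048; adjusted p = 9.97e-07). Me1, given above, is also in this list. Of 4 mitochondrial folate enzymes in this list, 2 fell: Aldh1l2 had 274, 267 and 273 CPM in knockout libraries and 402, 397 and 408 CPM in control libraries, a 1.48-fold fall (adjusted p = 1.47e-06). Mthfd2 fell 1.25-fold (adjusted p = 1.91e-04). Mthfd2l and Mthfd1l, named after their values were seen, were not called (log2 fold changes of -0.01 and -0.04; adjusted p of 0.923 and 0.731).

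Of 24 further peroxide and thiol enzymes, 21 were tested, 6 rose, 4 fell and 11 were not called. Glrx, cytosolic glutaredoxin, rose 1.49-fold (25.3 ± 0.901 CPM in knockout and 16.9 ± 0.304 CPM in control libraries; adjusted p = 2.83e-05). Msra, a methionine sulphoxide reductase, rose 1.46-fold (adjusted p = 3.95e-04). Cat, catalase of the peroxisome, named after its values were seen, had 387, 379 and 376 CPM in knockout libraries and 276, 260 and 273 CPM in control libraries, a 1.41-fold rise (adjusted p = 5.19e-06). Nxn, nucleoredoxin, a thioredoxin-like protein known to bind Dishevelled in the Wnt pathway, fell 1.46-fold (165 ± 6.71 CPM in knockout and 241 ± 11.3 CPM in control libraries; adjusted p = 5.53e-06). The sestrin gene Sesn3 fell 1.44-fold (adjusted p = 1.71e-04).

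Of 15 further glutathione transferases and their relatives, 8 were tested, 2 rose, 1 fell and 5 were not called. Both genes that rose belong to the MAPEG family, as the Mgst genes do: Ptges, microsomal prostaglandin E synthase, rose 1.51-fold (73.2 ± 1.61 CPM in knockout and 48.6 ± 2.46 CPM in control libraries; adjusted p = 4.51e-06). Ltc4s, leukotriene C4 synthase, rose 1.46-fold (28.9 ± 2.19 CPM in knockout and 19.8 ± 1.69 CPM in control libraries; adjusted p = 2.46e-04). Alox5ap, a MAPEG member in the same list named after its values were seen, lay below the control libraries in every knockout library (2.07 ± 0.228 CPM in knockout and 2.8 ± 0.367 CPM in control libraries) and was not called (log2 fold change -0.44; adjusted p = 0.0675). Gsto2 fell 1.51-fold at a low level (1.89 ± 0.399 CPM in knockout and 2.86 ± 0.14 CPM in control libraries; adjusted p = 0.0216), a call not made without knockout replicate 3 or control replicate 1. Gpx1, Gpx3, Gpx4 and the thioredoxin reductases depend on selenoprotein synthesis. Of 9 genes of this process, 1 rose (11.1%, beside 11.9% of all tested genes) and 8 were not called. It was Sephs2, selenophosphate synthetase, 1.12-fold (adjusted p = 0.0307), a call not made by DESeq2 or without any 1 of knockout replicates 1 and 3 and the control replicates.

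Of 12 oxidant-producing enzymes, 10 were tested, 4 rose, 0 fell and 6 were not called. Maob, the mitochondrial monoamine oxidase B, rose 1.74-fold (5.69 ± 0.595 CPM in knockout and 3.27 ± 0.212 CPM in control libraries; adjusted p = 4.00e-04). Aox1, aldehyde oxidase, had 35.3, 39.5 and 39.5 CPM in knockout libraries and 24.7, 24.8 and 22.9 CPM in control libraries, a 1.58-fold rise (adjusted p = 1.20e-05).

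**Figure D4:**
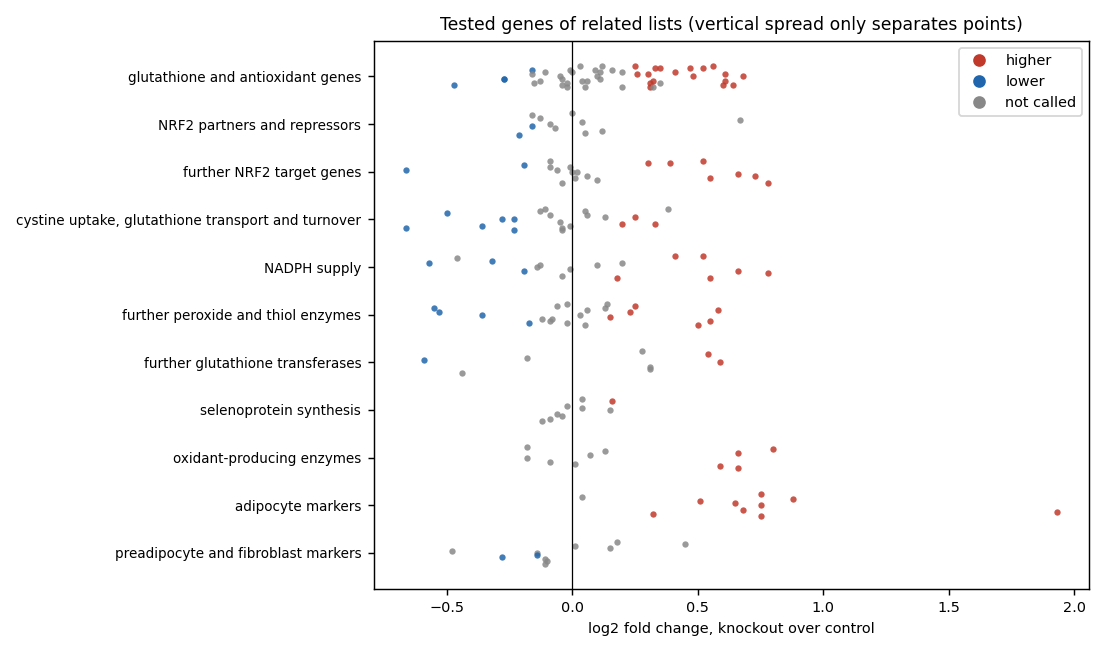
Log2 fold change, knockout over control, of every tested gene in the 47-gene set, in 8 further lists of the pathway and in 2 marker lists, 1 point per gene, coloured by call. Calls in both directions occur in the NRF2 target, glutathione turnover, NADPH, thiol and further transferase lists, while 4 of 10 oxidant-producing enzymes and 9 of 10 adipocyte markers were called higher and 0 lower.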

How the data were processed

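RNA was sequenced from 3 knockout and 3 control libraries (numbered here in accession order, which pairs no libraries) of differentiated cells, as total RNA depleted of ribosomal RNA and made into stranded libraries, per the labels' protocols. The deposited table holds raw read counts per gene. The submitters' processing notes name GRCm38, featureCounts 1.5.1, STAR 2.5.2b and DESeq2 1.16.0 without roles. Not given in the sources used here are the annotation, the strand setting and the treatment of reads with several matches. Of 49671 genes, 345 had no symbol in GENCODE M21.

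Counts were filtered with filterByExpr, scaled by TMM and tested between the groups with edgeR 4.0.16 (R 4.3.3; robust quasi-likelihood F-test, 2-sided, Benjamini-Hochberg adjustment over all 14946 tested genes), and a gene was called at an adjusted p under 0.05. CPM values use TMM-scaled library sizes, and RPKM values divide them by union exon length. The common biological coefficient of variation was 5.91%. The 16 alternatives include DESeq2 1.42.0 and limma-voom (limma 3.58.1). Copies of members were sought with blastn 2.17.0 at an identity of at least 97% over at least 75 bases.

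Per-library values are given for Nfe2l2, Keap1, the up to 3 called members with the largest change in each role group and the member with the highest mean CPM in each. From each further list the up to 2 called genes with the largest rise and fall are named, if their average log2 CPM was at least 0. The members and lists were chosen with earlier results of these data known. Values of the other members shown by library, and of Slc3a2, Cat, Ly6a, Mthfd2l, Mthfd1l and Alox5ap, were chosen after seeing them. Some overlapping and marker genes are not reported here.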

Additional observations from a re-analysis of the deposited data

How the results depend on the processing

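No paired analysis was possible because the labels number the libraries in 1 run over both groups, and the replicate numbers used here only name libraries in accession order. Of the 22 members called, 11 kept their call under all 16 alternatives (Gpx3, Prdx3, Sod2, Sod3, Gsta4, Gstm1, Gstz1, Mgst1, Mgst2, Mgst3 and Aldh2), 7 lost it only when tested against a fold change of 1.2 (Gclm, Gpx7, Prdx5, Prdx6, Sod1, Gstt1 and Ephx1), and Txnrd2, Gsto1, Nqo1 and Blvrb lost it under further settings. Over all genes 1778 were called higher and 1568 lower. The test against a fold change of 1.2, which asks for more than the main test, called 675 higher and 258 lower, with 10 members higher and 1 lower, and the stricter threshold of 0.01 called 1105 higher and 829 lower. Leaving out 1 library at a time gave 1222 to 1829 genes higher and 923 to 1646 lower, 17 to 19 members higher and 2 to 5 lower. The fewest falls came without control replicate 1 (923 genes, 2 members) and without knockout replicate 3 (925 genes, 2 members), and the cause was not tested. Of the 25 members not called, 7 were called under at least 1 alternative (Gpx4, Txn2, Txnrd1, Gstk1, Hmox1, Akr1b8 and Aldh3a2). No called result changed sign under the 16 alternatives, and no scaling moved the median of all genes by more than 0.01 on the log2 scale. Depth limited Gsta3 most, the 1 member with fewer than 100 counts over the 6 libraries.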
